A study of Mus musculus with 12 samples.

Results

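Collagen genes were taken as every gene symbol made of Col, a type number, the letter a and a chain number, with the longest transcript model standing for its gene. The rule found 43 of the 22878 gene symbols measured. They comprised 11 fibrillar collagens, 6 basement membrane chains (type IV), 9 fibril-associated collagens (FACITs), 6 chains of type VI, 3 network-forming chains (types VIII and X), 2 multiplexins, 4 transmembrane collagens, the anchoring fibril gene Col7a1 and Col28a1. The members were not chosen by their values.

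The 12 libraries were made from polyadenylated RNA of mouse embryonic stem (ES) cells. The genotypes were wild type (WT), SUV420H2 KO (KO below) and SUV420H1/H2 DKO (DKO below), with SUV420H1 and SUV420H2 being methyltransferases that act on lysine 20 of histone H4. For each, 2 libraries came from undifferentiated cells, 1 from day 8 and 1 from day 12 of differentiation. According to the growth protocol, which is the same for all 12 libraries, ES cells grew on gelatin over several passages that removed the feeder cells, with 1.5 µM of the GSK3 inhibitor spelled CHIR9901 there. The sources used here do not say how the cells were made to differentiate, their strain or the number of clones behind a genotype. Differentiated libraries carry the cell type label ES cell as well. Nor is it stated there if paired ES libraries were grown apart, so p-values among ES cells measure the spread between these libraries, which may be technical. Differentiated cells had no replicate of a day within a genotype. The spread in their fit is how far genotypes differed in the change from day 8 to day 12. Tests within genotypes and of their differences mix this with the ES spread. The comparison over genotypes also counts differences between days and in response as spread. RNA was bulk, so fewer cells of a type and less RNA per cell cannot be told apart in any value below.

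Collagens are secreted or membrane-bound proteins whose chains wind into triple helices. Fibrillar types (I, II, III, V, XI, XXIV, XXVII) assemble into the fibres of connective tissue and are made in quantity by fibroblasts, osteoblasts and chondrocytes. Type IV forms the sheet-like network of basement membranes together with laminins, nidogens and perlecan, and in the early embryo the parietal endoderm secretes it in large amounts. Type VI forms beaded filaments at the border of the 2 systems, FACITs sit on fibril surfaces, and the multiplexin Col18a1 is a basement membrane proteoglycan that releases endostatin.

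Reads counted in genes ranged from 22538336 to 26675600 per library. Suv420h2 was at 28.6 and 25.8 RPKM (reads per kilobase of transcript, scaled to library size, as deposited) in WT ES cells, at 3.37 to 5.59 RPKM in the KO and DKO ES libraries, and at 6.53 to 10.7 RPKM in their differentiated libraries against 33.2 and 31.4 RPKM in WT. Suv420h1 was not lower in the libraries labelled DKO, at 5.30 and 5.77 RPKM in ES cells against 3.78 and 4.18 RPKM in WT. Both ES libraries of a genotype differed by more than read sampling gives (chi-square over its degrees of freedom 3.99 for WT, 15.6 for KO, 37.9 for DKO). The summed level of 5 ES cell markers (Pou5f1, Nanog, Zfp42, Sox2, Esrrb) was 1312 to 2217 RPKM in ES cells. At days 8 and 12 it was 159.8 and 60.8 RPKM in WT, 919 and 457 RPKM in KO and 1391 and 897 RPKM in DKO.

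Several members lie side by side in the genome, per the RefSeq table of GRCm38.p6. Col3a1 and Col5a2 are neighbours on chromosome 1, Col6a1 and Col6a2 on chromosome 10, Col4a1 and Col4a2 on chromosome 8, and Col4a5 and Col4a6 on chromosome X. RefSeq promoter windows (250 bases before and 50 after a transcript start) covered 35 of the 43 genes in 38 windows. Shown first are the 120 bases before the start of 4 genes that were low in every ES library and high in differentiated WT cells, read 5′ to 3′ on the gene's strand. Capitals mark the motif CCAAT (the CCAAT box), the motif TATAAA (the TATA box) or the motif GGGCGG (the GC box), which were searched on both strands and do not overlap one another.
Col1a2 (GRCm38.p6 chr6:4505498-4505617, plus strand): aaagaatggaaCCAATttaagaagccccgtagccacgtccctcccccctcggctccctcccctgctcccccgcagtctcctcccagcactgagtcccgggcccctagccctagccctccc
Col3a1 (GRCm38.p6 chr1:45311418-45311537, plus strand): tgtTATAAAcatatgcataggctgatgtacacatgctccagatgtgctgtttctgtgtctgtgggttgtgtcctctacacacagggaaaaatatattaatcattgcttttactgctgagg
Col5a1 (GRCm38.p6 chr2:27886305-27886424, plus strand): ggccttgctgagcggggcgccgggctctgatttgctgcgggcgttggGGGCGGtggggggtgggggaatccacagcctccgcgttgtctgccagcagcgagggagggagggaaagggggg
Col6a1 (GRCm38.p6 chr10:76726045-76726164, minus strand): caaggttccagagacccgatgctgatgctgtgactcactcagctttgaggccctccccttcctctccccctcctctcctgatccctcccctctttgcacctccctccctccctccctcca
The 4 stretches differ in the motifs they hold. Over whole windows, CCAAT was in 13 of the 38 collagen windows against 37.4% of all 32851 windows, TATAAA in 5 against 13.6%, and GGGCGG in 23 against 35.7%. Col4a1 and Col4a2 are transcribed away from each other, and their RefSeq starts lie within 22 bases, shown here because both chains are followed together below.
Col4a1 and Col4a2 starts (GRCm38.p6 chr8:11312805-11312826, plus strand): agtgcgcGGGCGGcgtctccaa
The RefSeq starts of Col4a5 and Col4a6, also on opposite strands, are 1343 bases apart with no such overlap. A match or its absence describes these letters only.

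Few collagen genes were expressed in ES cells and many in differentiated WT cells. At a level of 1 RPKM or more, 4 genes were present in each WT ES library, 7 in each KO ES library and 5 in each DKO ES library. In WT cells 19 were present at day 8 and 19 at day 12. KO cells had 9 at day 8 and 20 at day 12, while DKO cells had 5 and 7. Over all libraries 23 genes reached 1 RPKM somewhere and 15 reached 5 RPKM. The other 20 stayed below 1 RPKM in every library, among them Col4a3 and Col4a4 (chains of the kidney glomerular basement membrane, with at most 7 reads in a library), the hypertrophic cartilage gene Col10a1 (at most 4 reads), Col7a1 (0.0671 to 0.283 RPKM), Col11a1, Col11a2, Col12a1, Col15a1, Col17a1 and Col24a1.

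**Figure D1:**
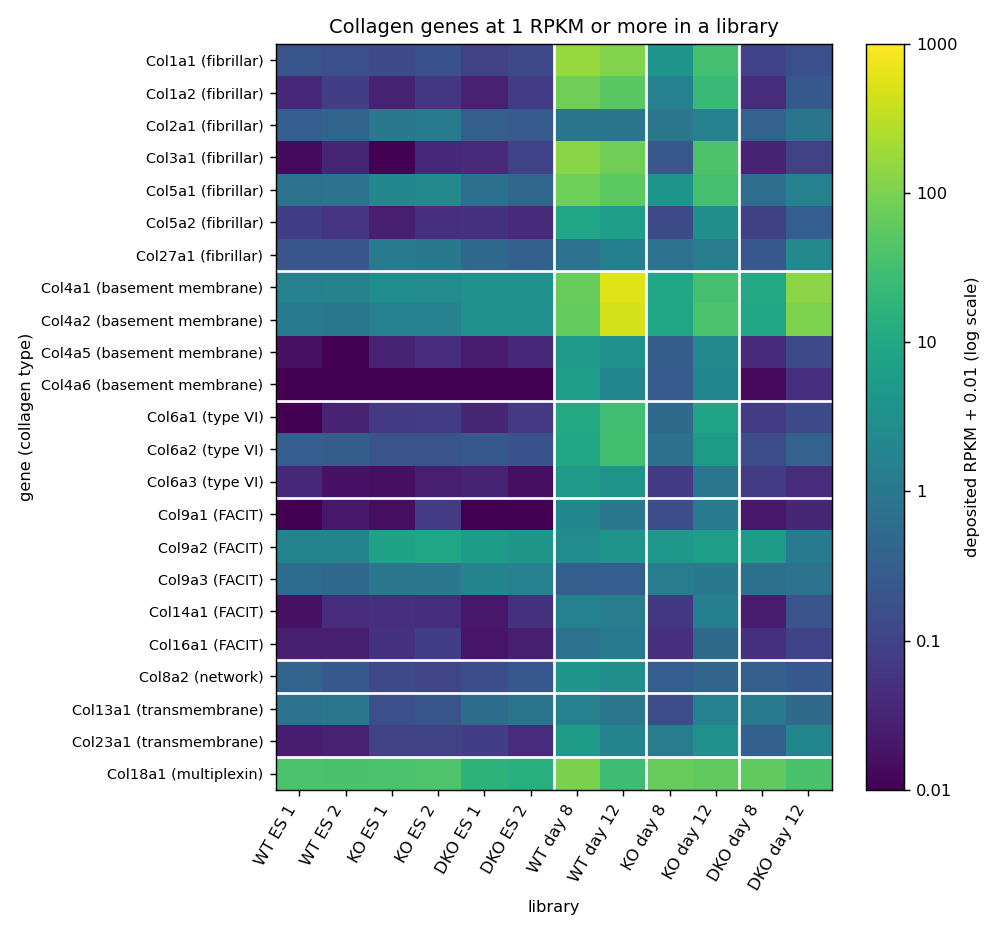
Deposited RPKM (colour, log scale of RPKM + 0.01) of the 23 collagen genes at 1 RPKM or more in a library (rows, by type) in the 12 libraries (columns, with white lines between ES cells and the genotypes' differentiated cells). The rows of types I, III, V and VI are brighter in WT day 8, WT day 12 and KO day 12 than in both DKO differentiated libraries. The fibrillar rows Col2a1 and Col27a1 do not show this order, and Col4a1 and Col4a2 are bright in DKO day 12 too.

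Summed over its genes, each type had its own order of libraries. Fibrillar collagens summed to 1.80 to 5.26 RPKM in ES cells. Their sums at days 8 and 12 were 470.7 and 312.3 RPKM in WT, 12.1 and 134.6 RPKM in KO and 1.71 and 5.78 RPKM in DKO. The DKO sums thus lay just below and just above the ES range. DKO ES cells alone were at 1.89 and 1.80 RPKM, so the DKO day 12 sum was above the ES libraries of its genotype. Its largest parts were Col27a1 (2.30 RPKM), Col5a1 (1.54 RPKM) and Col2a1 (0.850 RPKM). Basement membrane chains summed to 2.61 to 6.98 RPKM in ES cells, then to 146.1 and 1059 RPKM in WT, 18.4 and 76.8 RPKM in KO and 19.0 and 246.5 RPKM in DKO. Every differentiated library was above the ES range for these chains, DKO included. Type VI summed to 0.238 to 0.919 RPKM in ES cells, to 25.9 and 63.6 RPKM in WT, to 1.67 and 14.7 RPKM in KO and to 0.576 and 0.555 RPKM in DKO. The make-up of collagen RNA differed accordingly, with fibrillar genes at 61.4% and 21.1% of all collagen RPKM at WT days 8 and 12, 10.96% and 44.3% in KO, and 1.90% and 1.96% in DKO. Basement membrane chains made up 19.1% and 71.6% in WT, 16.6% and 25.3% in KO, and 21.1% and 83.5% in DKO. In ES cells Col18a1 alone gave 79.5% to 80.4% of collagen RPKM in WT, 65.0% to 66.2% in KO and 46.1% to 48.4% in DKO.

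**Figure D2:**
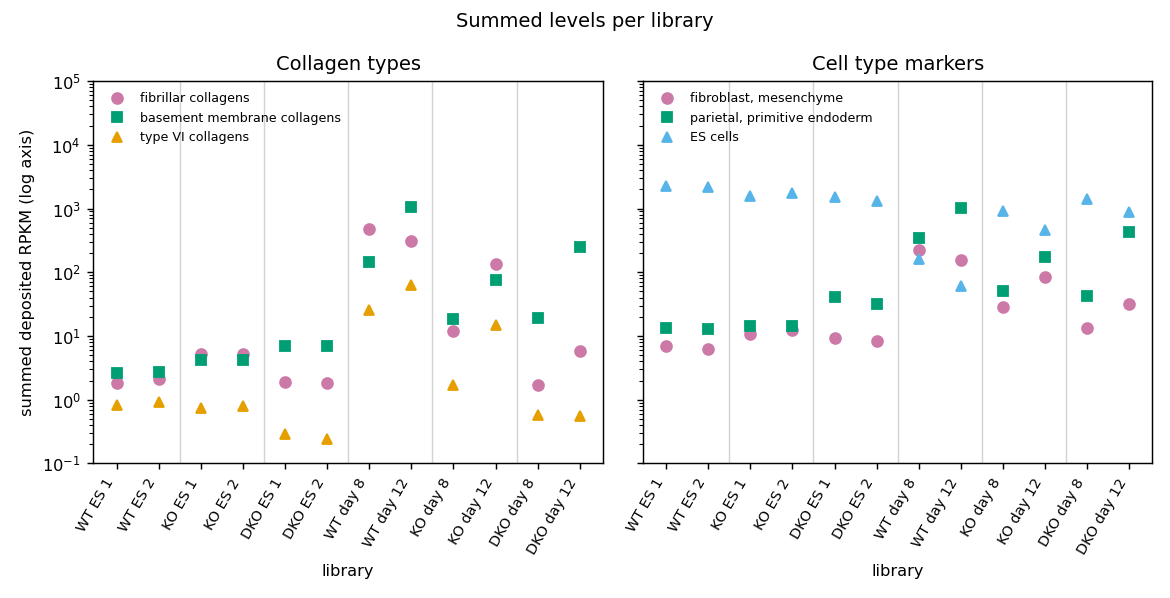
Summed deposited RPKM (log axis) per library of 3 collagen types (left) and of 3 lists of cell type markers (right). Fibrillar and type VI sums are highest in the WT differentiated libraries and lowest among differentiated cells in DKO, and the basement membrane sum of DKO day 12 (246.5) lies between those of WT day 8 (146.1) and WT day 12 (1059).

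Counts of changed genes are read with the expression filter in mind. A gene was tested if it reached 1 RPKM in at least 2 libraries of the fit, which 22 of the 43 did over the 12 libraries, 8 in the ES fit and 21 in the differentiated fit. Of the 22, 14 were under 1 RPKM in every ES library, and 10 had fewer than 2 libraries at 1 RPKM outside WT days 8 and 12. Members of that kind passed the filter only through the cells in which they were high and had to differ, so the counts below describe these genes and support nothing further. In the ES fit Col2a1, Col27a1 and Col5a1 passed only through the KO libraries and Col9a3 only through the DKO libraries, and the same holds for their counts there. A gene counted as changed at an adjusted p under 0.05 (edgeR quasi-likelihood test, Benjamini-Hochberg over all genes tested).

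In differentiated against ES cells over the 3 genotypes, 17 of the 22 rose and 0 fell, where 20.1% of all 13429 genes tested rose and 15.7% fell. The median log2 fold change was 4.85 over the 22 and 0.02 over all genes. Without KO day 12, 9 of the 22 changed, without either WT ES library 10 or 11, and the range over single libraries left out was 9 to 18. Within WT 18 rose and 1 fell (backgrounds 31.2% and 29.8%), with a median of 7.06. Within KO 14 rose and 0 fell (15.8% and 13.5%), with a median of 3.37, and 5 changed without KO ES replicate 2, 6 without KO ES replicate 1 and 8 without KO day 12. Within DKO 4 rose and 1 fell (10.4% and 9.25%), with a median of 0.92, or 0.89 with the 2 genes at 0 reads in DKO ES cells set to their bound. Here 2 changed without either DKO ES library and 3 without DKO day 12. When 1 library of a pair was left out, the other was assumed to vary like the remaining groups.

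Type I collagen, the main protein of bone, skin and tendon, was close to silent in ES cells. Col1a1 (chromosome 11) was at 0.0820 to 0.190 RPKM in the 6 ES libraries. It was at 167.1 and 114.5 RPKM in WT at days 8 and 12, at 4.04 and 32.8 RPKM in KO and at 0.0892 and 0.159 RPKM in DKO (19 and 32 reads). The genotypes did not overlap after differentiation, and both DKO values lay in the ES range. Its log2 fold change against ES cells was 9.72 in WT (SE 0.91, edgeR adjusted p = 8.05e-05), 6.33 in KO (SE 0.82, adjusted p = 0.00202) and 0.11 in DKO (SE 0.94, adjusted p = 0.946). The partner chain Col1a2 (chromosome 6) was at 0.0187 to 0.0735 RPKM in ES cells. It was at 81.1 and 52.5 RPKM in WT at days 8 and 12, at 1.59 and 23.5 RPKM in KO and at 0.0343 and 0.231 RPKM in DKO (8 and 51 reads). The order of the 6 differentiated libraries was the same for both chains. Col1a2 rose in WT (log2 fold change 10.65, SE 1.31, edgeR adjusted p = 0.000271) and, by 7.48, in KO (SE 1.24, adjusted p = 0.00466), and was at 1.14 in DKO (SE 1.42, adjusted p = 0.600). Per length, Col1a1 RNA was 2.06 and 2.18 times Col1a2 RNA in WT at days 8 and 12, and 2.54 and 1.39 times in KO. It was 0.687 times in DKO at day 12, from 32 and 51 reads.

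Col3a1, the type III chain of vessel walls and other extensible tissue, was among the lowest in ES cells and the highest in differentiated WT cells. In ES cells it was at 0 to 0.0926 RPKM. It reached 131.5 and 81.6 RPKM in WT at days 8 and 12, while KO had 0.222 RPKM (53 reads) at day 8 and 39.9 RPKM at day 12, and DKO 0.0198 and 0.0838 RPKM (5 and 20 reads). KO day 8 was thus 0.169% of WT at the same day and KO day 12 48.9%, and both DKO libraries lay in the ES range. Col3a1 rose in WT (log2 fold change 13.57, SE 2.39, edgeR adjusted p = 0.00152) and in KO (8.95, SE 2.30, adjusted p = 0.0223), the KO call being lost without KO day 12, without either KO ES library and with limma on log2(RPKM + 1). With ES levels this low, these fold changes rest on few reads in their denominators.

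Type V collagen, which sets fibril diameter, had one chain already present in ES cells. Col5a1 (chromosome 2) was at 0.740 and 0.790 RPKM in WT ES cells, 2.09 and 2.29 RPKM in KO and 0.650 and 0.444 RPKM in DKO. At days 8 and 12 it was at 79.0 and 53.8 RPKM in WT, 4.23 and 31.6 RPKM in KO and 0.609 and 1.54 RPKM in DKO. KO at day 8 was 5.35% of WT and at day 12 58.7%. The log2 fold change on differentiation was 6.51 in WT (SE 0.75, edgeR adjusted p = 0.000202), 2.47 in KO (SE 0.63, adjusted p = 0.0218) and 0.75 in DKO (SE 0.62, adjusted p = 0.419). The KO call was lost without KO day 12 and without either KO ES library. Col5a2 (chromosome 1) was at 0.0162 to 0.0723 RPKM in ES cells, 9.05 and 6.29 RPKM in WT at days 8 and 12, 0.127 and 3.10 RPKM in KO and 0.0767 and 0.303 RPKM in DKO. It rose in WT (7.25, SE 1.16, adjusted p = 0.000954) and in KO (4.98, SE 1.16, adjusted p = 0.0160), the latter lost with the same changes as that of Col3a1. Col5a1 exons share 99 and 113 bases with 2 opposite-strand transcripts in GENCODE M21, and strand use in the counting is not given.

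Col2a1 and Col27a1 did not follow this pattern. Col2a1, the main cartilage collagen, was at 0.816 and 0.876 RPKM in WT at days 8 and 12, at 0.933 and 1.62 RPKM in KO and at 0.365 and 0.850 RPKM in DKO, so the genotypes overlapped. Col27a1 was at 0.709 and 1.46 RPKM in WT, 0.719 and 1.34 RPKM in KO and 0.217 and 2.30 RPKM in DKO, again overlapping. Both rose within WT from lower ES levels (Col27a1 by 2.23, SE 0.52, edgeR adjusted p = 0.00619, and Col2a1 by 1.16, SE 0.32, adjusted p = 0.0130, on the log2 scale), and the Col2a1 call was lost without WT ES replicate 1 or WT day 8. Of the 5 cartilage markers Acan, Comp and Matn3 were below 1.5 RPKM in all 6 differentiated libraries, Matn1 reached 3.88 RPKM at WT day 8 and Sox9 11.4 RPKM at KO day 12. The type XI chains of cartilage fibrils were below 1 RPKM throughout and so below the expression filter. Col11a2 was at 0.592 and 0.830 RPKM in WT at days 8 and 12, 0.0498 and 0.193 RPKM in KO and 0.0236 and 0.175 RPKM in DKO, so both WT values were above the others. Col11a1 was at 0.683 and 0.433 RPKM in WT, 0.0927 and 0.462 RPKM in KO and 0.0849 and 0.103 RPKM in DKO, with WT and KO overlapping. Col24a1 and Col5a3 also stayed below 1 RPKM.

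**Figure D3:**
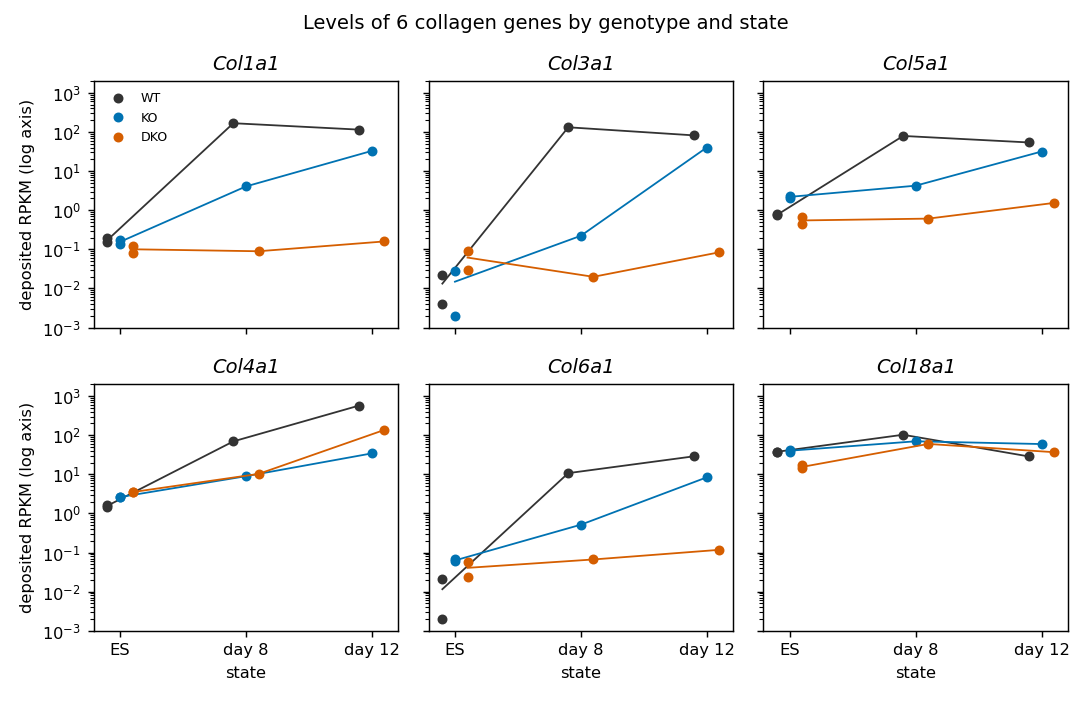
Deposited RPKM (log axis) of 6 collagen genes in ES cells, at day 8 and at day 12 (points are libraries, lines join the ES mean to the day 8 and day 12 libraries of a genotype, and a value of 0 is drawn at 0.002). DKO stays near its ES level for Col1a1, Col3a1, Col5a1 and Col6a1 but not for Col4a1, and Col18a1 is at 14.2 RPKM or more in every library.

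Markers of fibroblasts and mesenchyme were followed beside the fibrillar genes. The 8 listed markers (Pdgfra, Pdgfrb, Thy1, Twist1, Prrx1, Postn, Dcn, Lum) summed to 6.32 to 12.4 RPKM in ES cells, 226.9 and 153.7 RPKM in WT at days 8 and 12, 28.9 and 83.9 RPKM in KO and 13.3 and 31.6 RPKM in DKO. The order of these sums was that of the fibrillar sums except that KO day 8 was below DKO day 12 for the markers and above it for the fibrillar genes. Of the 8, 7 and 8 were at 1 RPKM or more in WT, 4 and 8 in KO, and 2 and 2 in DKO. Postn, which marks collagen-secreting mesenchyme, was at 73.9 and 28.0 RPKM in WT, 0.181 and 17.8 RPKM in KO, and 0 and 0.0145 RPKM in DKO. Lum, a proteoglycan of collagen fibrils, was likewise at 0.0850 and 0 RPKM in DKO, against 12.1 and 18.5 RPKM in WT and 0 and 7.596 RPKM in KO. Twist1 (17.3 RPKM) and Pdgfra (12.8 RPKM) were the members present in DKO at day 12. Thy1, a surface glycoprotein, had another order, at 0.886 and 2.27 RPKM in WT, 4.33 and 1.24 RPKM in KO and 4.07 and 0.686 RPKM in DKO. In ES cells Thy1 was at 4.26 to 6.79 RPKM in WT and KO and at 0.624 and 0.784 RPKM in DKO. Its DKO day 8 value was thus above both DKO ES libraries. Within genotypes 7 of the 8 rose in WT, 6 in KO and 0 in DKO (edgeR), where 31.2%, 15.8% and 10.4% of all genes rose. In DKO 1 of the 8 had an unadjusted p under 0.05, against 36.0% of all genes. The part of these cells in the fibrillar values was not tested.

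The main basement membrane chains followed another course. Col4a1 (chromosome 8) was at 1.46 and 1.68 RPKM in WT ES cells, 2.68 and 2.56 RPKM in KO and 3.44 and 3.58 RPKM in DKO. At days 8 and 12 it was at 69.3 and 572.1 RPKM in WT, 8.95 and 34.2 RPKM in KO and 10.2 and 136.2 RPKM in DKO. WT at day 12 held the highest level of any collagen gene in any library, and at each day KO and DKO were below WT. Its log2 fold change against ES cells was 6.86 in WT (SE 0.42, edgeR adjusted p = 1.82e-05), 2.65 in KO (SE 0.35, adjusted p = 0.00213) and 3.37 in DKO (SE 0.36, adjusted p = 0.00147). Its partner Col4a2 was at 1.004 to 1.67 RPKM in WT and KO ES cells and at 3.48 and 3.37 RPKM in DKO. Col4a2 reached, at days 8 and 12, 65.7 and 481.3 RPKM in WT, 8.85 and 38.3 RPKM in KO and 8.71 and 110.1 RPKM in DKO. It rose in all 3 genotypes, by 7.26 in WT (SE 0.36, edgeR adjusted p = 1.03e-05), 3.40 in KO (SE 0.31, adjusted p = 0.000628) and 3.13 in DKO (SE 0.30, adjusted p = 0.001). These 6 calls held with every library left out and every other setting tried.

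Both chains stayed close to each other over their whole range of levels. The Col4a1 to Col4a2 ratio of RPKM was 0.893 to 1.24 in the 6 differentiated libraries and 0.989 to 1.72 in the 6 ES libraries. Their ratio to type I RNA varied far more, with Col4a1 at 0.415 times Col1a1 in WT at day 8 and 4.998 times at day 12, at 2.21 and 1.05 times in KO, and at 857.1 times in DKO at day 12.

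The X-linked chains Col4a5 and Col4a6 form networks in a more limited set of basement membranes. In their levels they resembled fibrillar types I, III and V. Col4a5 was at 0 to 0.0340 RPKM in ES cells, 5.10 and 3.61 RPKM in WT at days 8 and 12, 0.290 and 2.26 RPKM in KO and 0.0306 and 0.129 RPKM in DKO. Col4a5 rose in WT (log2 fold change 10.32, SE 1.18, edgeR adjusted p = 0.000194) and in KO (4.93, SE 0.89, adjusted p = 0.00626, lost without either KO ES library and with limma on log2(RPKM + 1)), and was at 1.59 in DKO (SE 0.96, adjusted p = 0.270). Col4a6 had no read in any ES library. It was at 5.99 and 2.05 RPKM in WT, 0.273 and 1.98 RPKM in KO and 0.00332 and 0.0386 RPKM in DKO (1 and 11 reads). Against a floor of 3 reads per ES library, its mean in differentiated cells was at least 417-fold higher in WT, at least 115-fold higher in KO and at least 2.08-fold higher in DKO. WT and KO were close at day 12, where KO was 96.6% of WT. The other chains of type IV, Col4a3 and Col4a4, had at most 7 reads in any library.

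Markers of parietal and primitive endoderm were followed beside the type IV chains. The 9 listed genes (Gata4, Gata6, Sox17, Sox7, Dab2, Pth1r, Thbd, Plat, Lamb1) summed to 13.0 to 14.4 RPKM in WT and KO ES cells and to 40.9 and 31.5 RPKM in DKO. Their sums at days 8 and 12 were 342 and 1016 RPKM in WT, 49.9 and 174.7 RPKM in KO and 42.1 and 434.2 RPKM in DKO. The order of these sums among differentiated libraries was that of the Col4a1 levels except that KO and DKO exchanged places at day 8. Of the 9, 9 and 9 were at 1 RPKM or more in WT, 6 and 9 in KO, and 7 and 8 in DKO. Within genotypes 9 rose in WT, 8 in KO and 4 in DKO (backgrounds 31.2%, 15.8% and 10.4%), the last being Lamb1, Dab2, Pth1r and Sox17. None of the 9 was at 0 RPKM in a differentiated library, with Thbd lowest at 0.0474 RPKM in DKO at day 8. Their part in the type IV values was not tested.

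Type VI collagen, encoded mainly by Col6a1, Col6a2 and Col6a3, was low in ES cells and near absent from DKO. Col6a1 (chromosome 10) was at 0 to 0.0665 RPKM in ES cells. It was at 10.7 and 28.9 RPKM in WT at days 8 and 12, 0.515 and 8.35 RPKM in KO and 0.0665 and 0.117 RPKM in DKO (12 and 20 reads). Its neighbour Col6a2 was at 0.171 to 0.309 RPKM in ES cells, 9.95 and 30.9 RPKM in WT, 0.692 and 5.33 RPKM in KO and 0.142 and 0.369 RPKM in DKO. Both were higher at day 12 than at day 8 in WT, unlike the fibrillar chains of types I, III and V, which were lower. Col6a3 (chromosome 1) was at 0.00570 to 0.0261 RPKM in ES cells, 5.12 and 3.80 RPKM in WT, 0.0622 and 0.904 RPKM in KO and 0.0630 and 0.0323 RPKM in DKO. All 3 rose in WT, with log2 fold changes of 10.51 for Col6a1 (SE 1.06, edgeR adjusted p = 0.000110), 5.76 for Col6a2 (SE 0.40, adjusted p = 2.75e-05) and 7.98 for Col6a3 (SE 1.30, adjusted p = 0.00102). All 3 also rose in KO, Col6a2 by 3.35 (SE 0.38, adjusted p = 0.00129) and Col6a1 by 5.13 (SE 0.83, adjusted p = 0.00430, lost without KO ES replicate 2). The KO call of Col6a3 was lost without KO day 12, without either KO ES library and with limma on log2(RPKM + 1) or log2(RPKM + 0.1). None of the 3 passed in DKO, where Col6a2 was at 0.09 (SE 0.39, adjusted p = 0.892). The chains Col6a4, Col6a5 and Col6a6, clustered on chromosome 9, stayed below 1 RPKM in all libraries, and Col6a4 and Col6a5 were lower in DKO ES cells (0 to 0.00971 RPKM) than in the other ES cells (0.184 to 0.306 RPKM), both being too low for the expression filter.

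Col18a1 was the one collagen above 14 RPKM in all 12 libraries. It was at 38.2 and 37.2 RPKM in WT ES cells, 37.95 and 42.3 RPKM in KO and 16.8 and 14.2 RPKM in DKO. At days 8 and 12 it was at 102.6 and 28.6 RPKM in WT, 69.7 and 59.3 RPKM in KO and 59.7 and 36.7 RPKM in DKO. WT held both the highest and the lowest differentiated value, so the genotypes overlapped. Col18a1 rose on differentiation in DKO (log2 fold change 1.52, SE 0.29, edgeR adjusted p = 0.0116, lost without either DKO ES library), while WT was at 0.45 (SE 0.29, adjusted p = 0.201) and KO at 0.56 (SE 0.29, adjusted p = 0.175).

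The transmembrane collagen Col23a1 was at 0.0153 to 0.0831 RPKM in ES cells, 5.20 and 1.83 RPKM in WT at days 8 and 12, 1.23 and 3.27 RPKM in KO and 0.335 and 2.001 RPKM in DKO. It rose in all 3 genotypes, with log2 fold changes of 7.74 in WT (SE 1.06, edgeR adjusted p = 0.000434), 4.46 in KO (SE 0.86, adjusted p = 0.00803) and 4.11 in DKO (SE 0.89, adjusted p = 0.0168). The KO and DKO calls were lost without either ES library of their genotype, and the DKO call without DKO day 12 and with limma on log2(RPKM + 1). Col8a2, a short-chain collagen of corneal basement membrane, was at 0.102 to 0.376 RPKM in ES cells, 3.96 and 3.10 RPKM in WT, 0.306 and 0.421 RPKM in KO and 0.316 and 0.226 RPKM in DKO. Unlike types I, III and V it stayed low in KO at day 12, at 13.6% of WT. Among FACITs, Col9a2, a chain on cartilage fibrils, was at 2.74 and 3.82 RPKM in WT, 4.62 and 6.44 RPKM in KO and 5.56 and 1.16 RPKM in DKO, with overlap. Col9a1 was at 2.13 and 0.983 RPKM in WT, 0.144 and 1.19 RPKM in KO and 0.0113 and 0.0240 RPKM in DKO, and Col14a1 at 1.56 and 1.26, 0.0541 and 1.40, and 0.0137 and 0.177 RPKM. Col9a1 and Col14a1 rose within WT (edgeR adjusted p = 0.00406 and 0.00344), with KO at adjusted p = 0.0676 and 0.0771 and DKO at 0.308 and 0.646. Col13a1 passed in no genotype (adjusted p = 0.157 to 0.830). Col9a3 fell within WT and DKO (edgeR adjusted p = 0.0485 and 0.0293), both calls being lost when any of several single libraries was left out. Its exons share 234 bases with opposite-strand Tcfl5, which was at 1.84 to 19.98 RPKM, so its reads are uncertain.

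**Figure D4:**
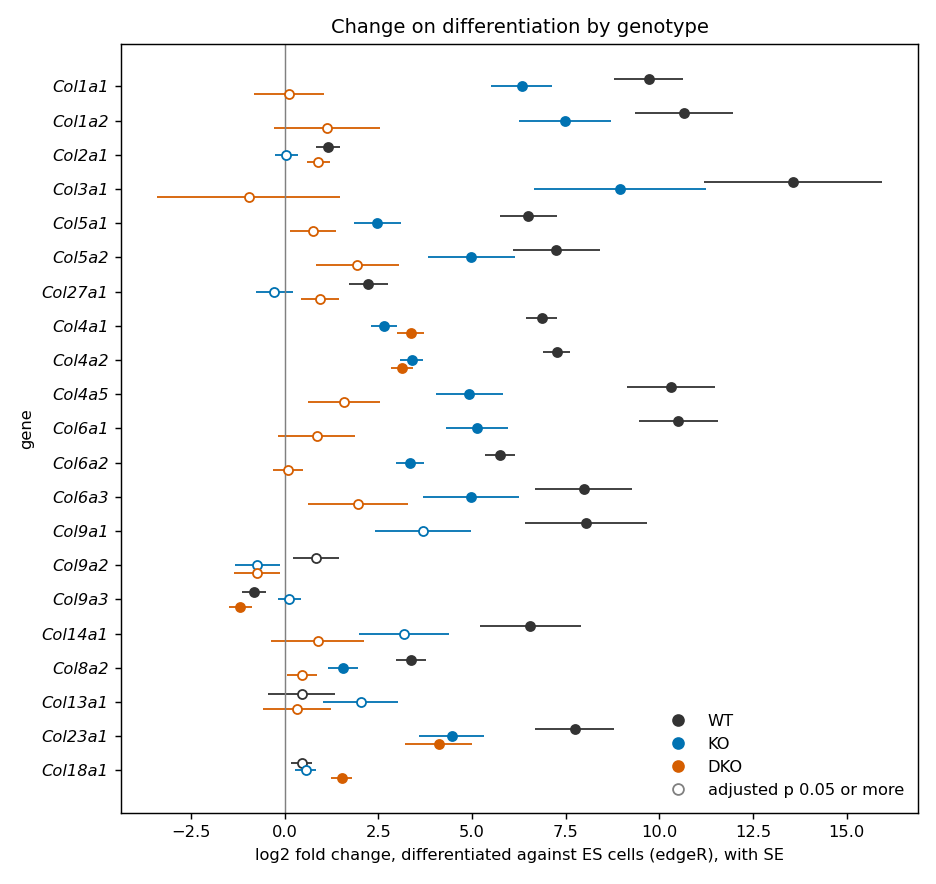
Log2 fold change of differentiated against ES cells (horizontal axis, edgeR) with its standard error, for 21 collagen genes within WT, KO and DKO, open points being those at an adjusted p of 0.05 or more. Col4a6, and Col9a1 in DKO, had no ES reads and are left out. WT points lie farthest right for most genes. DKO points of types I, III, V and VI are open and lie well left of their WT points, not all of them near 0. Those of Col4a1 (3.37) and Col4a2 (3.13) in DKO are filled.

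The difference between genotypes in this response was tested as a contrast. KO minus WT was negative and passed for 6 of 22 genes and positive for 0, where 7.24% of all genes were lower and 9.07% higher. The median was -3.09 over the 22 and 0.03 over all genes. Col4a2 was at -3.86 (SE 0.41, edgeR adjusted p = 0.00228) and Col4a1 at -4.21 (SE 0.49, adjusted p = 0.00292), and these calls held in every alternative. Col6a2 (-2.41, SE 0.50, adjusted p = 0.0178), Col5a1 (-4.04, SE 0.90, adjusted p = 0.0221) and Col6a1 (-5.38, SE 1.44, adjusted p = 0.0390) were lost without any one of the WT or KO ES libraries, and Col6a1 also without either DKO ES library. The chromosome X median over all genes was -0.38 in this contrast. Col27a1 was lost in most alternatives. The type I and III genes did not pass, with Col1a1 at -3.39 (SE 1.09, adjusted p = 0.0684) and Col3a1 at -4.62 (SE 4.92, adjusted p = 0.551). Without any one WT or KO ES library 2 genes passed, without KO day 12 there were 12, and without WT day 12 there were 15.

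DKO minus WT was negative and passed for 13 of 22 genes and positive for 0, against 20.8% lower and 21.1% higher over all genes, with medians of -4.72 and -0.02. The 13 were Col1a1, Col1a2, Col3a1, Col5a1, Col5a2, Col4a1, Col4a2, Col4a5, Col6a1, Col6a2, Col6a3, Col8a2 and Col14a1. Col6a2 was at -5.67 (SE 0.53, edgeR adjusted p = 0.000239), Col4a2 at -4.13 (SE 0.41, adjusted p = 0.000291), Col1a1 at -9.60 (SE 1.29, adjusted p = 0.000965) and Col5a1 at -5.76 (SE 0.92, adjusted p = 0.00199). Of the 13, Col1a1, Col4a1, Col4a2, Col4a5, Col5a1, Col6a1 and Col6a2 held in every alternative. Col8a2 held wherever it was tested, but without WT day 8 or WT day 12 it was below the filter and not tested. Col1a2 and Col3a1 held in all alternatives but the one without DKO ES replicate 2. Without that library 8 genes passed. DKO minus KO passed for 2 genes, Col6a2 (-3.26, SE 0.54, adjusted p = 0.01) and Col1a1 (-6.22, SE 1.24, adjusted p = 0.0169), both lower, against 6.97% lower and 7.63% higher over all genes. Leaving out KO ES replicate 2 removed both calls, limma on log2(RPKM + 1) removed that of Col6a2, and Col1a1 was also lost without KO ES replicate 1, DKO ES replicate 2 or DKO day 12. With KO day 8, WT day 8, WT day 12 or DKO day 8 left out the count was 11, 9, 9 and 4, and with KO ES replicate 1 or DKO ES replicate 2 left out it was 1. For Col4a1 and Col4a2 this contrast was at 0.71 (SE 0.47, adjusted p = 0.328) and -0.26 (SE 0.40, adjusted p = 0.681). The 3 contrasts share libraries and are not independent of each other.

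Levels were also compared directly among differentiated cells, with 1 library per day and genotype. Both WT values were above both KO values in 13 of the 22 genes, against 23.8% of all genes, and above both DKO values in 13, against 28.5%. These are counts of RPKM order with no test. Of the 22 genes, 10 had fewer than 2 libraries at 1 RPKM outside WT days 8 and 12. For those 10 the filter itself favoured this order, so the counts describe these genes and support nothing further. In the edgeR fit of the 6 libraries, the spread was the genotypes' difference in change between days, with no replicates to measure it otherwise. There 0 of 21 collagen genes differed between KO and WT, as did 0.0% of 12896 genes. At an unadjusted p under 0.05 there were 11 (23.3% of all genes), and DESeq2 called 13 (14.2%). On log2(RPKM + 1) and log2(RPKM + 0.1) limma called 2 and 2 (1.05% and 1.24%). In this comparison the median over all genes of chromosome 1, which carries Col3a1, Col5a2, Col6a3 and Col9a1, was -0.53, and that of chromosome X, which carries Col4a5 and Col4a6, was 0.51. Their part in the members' values was not tested. Between DKO and WT 4 of 21 were lower and 0 higher (0.659% and 1.52% of all genes). These were Col6a2 (-6.18, SE 0.54, edgeR adjusted p = 0.0430), Col1a1 (-10.29, SE 1.22, adjusted p = 0.0472), Col8a2 (-3.60, SE 0.44, adjusted p = 0.0472) and Col6a1 (-7.62, SE 1.03, adjusted p = 0.0498). None of the 4 passed without any one of the KO or DKO libraries, and 12 genes passed without WT day 12. Between DKO and KO 0 of 21 differed (0.00775% of all genes in either direction), with 9 at an unadjusted p under 0.05 (16.8%), 10 by DESeq2 (9.12%) and 0 by limma with either offset (0.0388% and 0.116%), and 4 passed without WT day 8 or WT day 12. Chromosome medians over all genes were 0.57 on chromosome 1, -0.58 on chromosome X and -0.51 on chromosome 11, which carries Col1a1 and Col23a1.

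The days differed in level, with no replicate of a day within a genotype. In KO 20 of 22 genes were higher at day 12 than at day 8, against 58.3% of all genes. In WT 15 of 22 were lower at day 12, against 57.7%, and in DKO 17 were higher, against 63.5%. The WT and DKO counts are near these shares. The KO levels of fibrillar types I, III and V lay far from WT at day 8 and nearer at day 12. Col1a1 was at 2.42% and then 28.6% of WT, Col1a2 at 1.96% and 44.8%, and Col5a2 at 1.40% and 49.2%. Col4a1 in KO went the other way, at 12.9% and 5.98% of WT, while in DKO it was nearer to WT at day 12, at 14.8% and 23.8%. Day 12 against day 8, fitted over the 3 genotypes together, gave 0 of 21 collagen genes and 0.0% of all genes. At an unadjusted p under 0.05 there were 6 (12.3% of all genes), DESeq2 called 5 (4.39%) and limma 0 with either offset (0.0%).

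Differences between genotypes were already present in ES cells, at under 4 RPKM for all but Col18a1 and Col9a2. In KO against WT ES cells 7 of the 8 genes tested were higher and 0 lower, against 23.5% and 19.2% of 12044 genes, with medians of 1.27 and -0.01. Col9a2 (chromosome 4) was at 1.78 and 1.71 RPKM in WT and at 7.76 and 9.001 RPKM in KO (a log2 difference of 2.30, SE 0.16, edgeR adjusted p = 4.96e-07). Col27a1 was at 0.202 and 0.201 RPKM in WT and 1.17 and 1.04 RPKM in KO (2.49, SE 0.22, adjusted p = 3.84e-06), and Col2a1 at 0.296 and 0.405 RPKM against 1.01 and 1.13 RPKM (1.64, SE 0.25, adjusted p = 0.000223). Neither Col27a1 nor Col2a1 reached 1 RPKM in WT or DKO ES cells. Col5a1 was higher in KO too (1.56, SE 0.18, adjusted p = 2.48e-05), as were Col4a1 (0.78, SE 0.14, adjusted p = 0.000767) and Col4a2 (0.64, SE 0.15, adjusted p = 0.00368, lost without WT ES replicate 2), and Col9a3, whose reads are uncertain as above. Col18a1 was at 0.13 (SE 0.11, adjusted p = 0.376). Without either KO ES library 4 genes passed, Col2a1, Col27a1 and Col5a1 then being below the filter and not tested. With all 12 libraries in one fit the calls of Col4a1, Col4a2, Col5a1 and Col9a3 were lost.

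In DKO against WT ES cells 5 of the 8 were higher and 2 lower, against 32.2% and 31.7% of all genes, with medians of 1.09 and -0.01. Col4a2 (1.70, SE 0.15, edgeR adjusted p = 9.98e-07), Col9a2 (1.53, SE 0.16, adjusted p = 4.28e-06) and Col4a1 (1.17, SE 0.14, adjusted p = 1.52e-05) were higher. Col18a1 was lower (-1.28, SE 0.11, adjusted p = 1.40e-06), and its DKO values of 16.8 and 14.2 RPKM did not overlap the 37.2 to 42.3 RPKM of the other ES libraries. Col5a1 was lower by a small margin (-0.48, SE 0.19, adjusted p = 0.0360) and lost the call without DKO ES replicate 2 or either WT ES library. In DKO against KO ES cells 3 were higher and 5 lower, against 33.3% and 34.1% of all genes, with medians of -1.09 and -0.02. The lower ones were Col18a1 (-1.41, SE 0.12, adjusted p = 4.63e-07), Col5a1 (-2.04, SE 0.18, adjusted p = 1.02e-06), Col2a1, Col27a1 and Col9a2, and the higher ones Col4a2 (1.05, SE 0.14, adjusted p = 3.31e-05), Col4a1 and Col9a3. The calls of Col4a1 and Col9a3 were lost without either KO ES library, and without either of those libraries 3 genes passed, with Col2a1, Col27a1 and Col5a1 below the filter. With all 12 libraries in one fit the calls of Col5a1, Col9a2 and Col27a1 were lost against WT and those of Col4a1, Col9a2 and Col9a3 against KO. Gata4, a marker of the endoderm list, was at 20.2 and 15.0 RPKM in DKO ES cells against 1.28 and 1.40 RPKM in WT (3.71, SE 0.17, adjusted p = 7.4e-09), beside the higher Col4a1 and Col4a2, and its part was not tested.

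Genes that fold, modify and process procollagen were followed alongside. Of 22 folding and modification genes 20 were tested, and 18 rose in WT, 8 in KO and 6 in DKO, with 1 lower in KO, against the shares of all genes given above for each genotype. Serpinh1, the collagen chaperone HSP47, was at 20.2 and 17.9 RPKM in WT ES cells, 55.6 and 61.4 RPKM in KO and 116.8 and 95.1 RPKM in DKO. In differentiated cells, days 8 and 12 in order, it was at 403.3 and 687.9 RPKM in WT, 73.0 and 275 RPKM in KO and 87.2 and 297.6 RPKM in DKO. Its rise in WT was 4.69 on the log2 scale (SE 0.26, edgeR adjusted p = 1.4e-05), and the response was smaller by 3.57 in KO (SE 0.33, adjusted p = 0.0014) and by 4.16 in DKO (SE 0.33, adjusted p = 0.00014). Serpinh1 was already higher than WT in ES cells of KO (1.66, SE 0.12, adjusted p = 9.9e-07) and DKO (2.48, SE 0.13, adjusted p = 1.8e-08). Others were lower there, Fkbp10 in KO (-1.28, SE 0.13, adjusted p = 1.3e-05) and P4hb in DKO (-1.23, SE 0.13, adjusted p = 4.4e-06). Of 18 folding genes tested in ES cells, 7 were higher and 3 lower in KO (23.5% and 19.2% of all genes). In DKO 4 were higher and 6 lower (32.2% and 31.7%). All but the higher KO count are near or below those shares. P4ha1, a catalytic subunit of prolyl 4-hydroxylase, rose in all genotypes, by 4.24 in WT (SE 0.23, adjusted p = 1.3e-05), 2.41 in KO (SE 0.22, adjusted p = 0.00063) and 2.90 in DKO (SE 0.22, adjusted p = 0.00048). Creb3l1, a membrane-bound transcription factor of the secretory pathway, was at 30.8 and 72.7 RPKM in WT at days 8 and 12, 3.85 and 13.1 RPKM in KO and 4.42 and 17.2 RPKM in DKO. The median response of the 20 genes was 1.53 within WT, 0.77 within KO and 0.47 within DKO. Mia3, needed for procollagen export, was listed at 0 in all 12 libraries. Whether its RNA was absent or its transcript model was not counted was not tested.

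Of 14 processing and crosslinking genes 13 were tested, with 8 higher and 2 lower in WT (31.2% and 29.8% of all genes), 5 and 1 in KO (15.8% and 13.5%), and 1 and 2 in DKO (10.4% and 9.25%), the DKO counts being near those shares. Loxl2, a lysyl oxidase that acts on type IV collagen, rose in all 3 genotypes, by 5.75 in WT (SE 0.44, edgeR adjusted p = 3.8e-05), 4.20 in KO (SE 0.41, adjusted p = 0.0009) and 3.24 in DKO (SE 0.39, adjusted p = 0.0024). Lox, which crosslinks fibrillar collagen, was at 2.89 and 10.6 RPKM in WT at days 8 and 12, 0.0516 and 0.854 RPKM in KO and 0.165 and 0.117 RPKM in DKO. The N-proteinase gene Adamts2 was at 11.8 and 6.83 RPKM in WT, 0.914 and 5.28 RPKM in KO and 0.165 and 0.225 RPKM in DKO. Lox and Adamts2 were thus low in DKO, while Loxl2 was not. In DKO ES cells the proteinase gene Tll1 was at 9.56 and 9.74 RPKM against 0.375 and 0.307 RPKM in WT (4.83, SE 0.18, adjusted p = 2.3e-09), and Bmp1 was higher as well (2.05, SE 0.19, adjusted p = 2e-06). Adamts14 was lower there (-2.14, SE 0.17, adjusted p = 6.6e-07), as were Pcolce2 and Pcolce. Of the 10 genes of the list tested in ES cells, 5 were higher and 3 lower in DKO than in WT. Over all genes the shares were 32.2% and 31.7%, the lower count being near its share.

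Partners, receptors and degrading enzymes completed the list. Of 13 basement membrane partners 12 were tested, with 10 higher and 0 lower in WT, 3 and 2 in KO, and 3 and 1 in DKO. The shares of all genes just given are the background here and for the next lists, and the 2 that were lower in KO are near theirs. Lama1, a laminin chain of embryonic basement membranes, was at 7.63 and 93.8 RPKM in WT at days 8 and 12, 0.379 and 2.86 RPKM in KO and 1.57 and 26.3 RPKM in DKO. In ES cells Lama1 was at 4.02 and 3.55 RPKM in WT, 2.51 and 2.30 RPKM in KO and 2.57 and 2.75 RPKM in DKO. Fitted over both days, its log2 fold change was 2.70 in WT (SE 0.24, edgeR adjusted p = 6.1e-05). It was 1.20 in DKO (SE 0.23, adjusted p = 0.011) and -1.37 in KO (SE 0.23, adjusted p = 0.0052). Both WT days were above the WT ES libraries. In KO and in DKO, day 8 was below the ES libraries of the genotype and day 12 above them. Sparc, a collagen-binding glycoprotein, was at 402.1 and 1073 RPKM in WT, 67.6 and 232.9 RPKM in KO and 76.1 and 369.6 RPKM in DKO. Of 10 receptors 5 were tested, with 5 higher in WT, 2 higher and 1 lower in KO, and 2 higher in DKO. The discoidin receptor gene Ddr2 was at 4.91 and 3.96 RPKM in KO ES cells and at 0.00994 to 0.0811 RPKM in the other ES cells (KO against WT 6.06, SE 0.25, adjusted p = 7.1e-09), and it fell in KO on differentiation (-3.67, SE 0.41, adjusted p = 0.0013). Of 12 genes for degradation and uptake 7 were tested, with 6 higher and 1 lower in WT, 5 and 1 in KO, and 2 and 0 in DKO. The collagenase genes Mmp1a and Mmp8 were listed at 0 in all libraries, whereas Mmp2, a gelatinase, rose in each genotype, with 81.8 and 36.2 RPKM in WT, 17.8 and 49.9 RPKM in KO and 11.8 and 14.8 RPKM in DKO at days 8 and 12.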

How the data were processed

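The deposited counts are whole numbers of reads for 29257 RefSeq transcript models. The deposited RPKM follow, by their values, from those counts, the exon lengths given beside them and a total of 41551851 to 48529594 reads per library. That total exceeds the reads in genes, so ratios of RPKM can differ from fitted fold changes. Reads were aligned to mm9 with Bowtie2, per the submitters' processing notes. The counting program and its use of strand are not given in the sources used here. Of the 43 collagen genes 6 had several models, and the longest stood for each.

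The counts were tested with edgeR 4.0.16 (TMM scaling, quasi-likelihood F test, R 4.3.3) on genes at 1 RPKM or more in at least 2 libraries. Standard errors come from each fold change and its F, as the absolute log2 value over F's square root. The ES fit had 6 libraries and 3 residual degrees of freedom, the differentiated fit 6 libraries with genotype and day and 2, the comparison over genotypes 12 libraries with genotype and 8, and the tests within genotypes and of their differences 12 libraries with genotype by state, plus day, and 5. Scripts were tested on simulated data. Alternatives were RLE, upper-quartile and library-total scaling, no filter, DESeq2 1.42.0, limma 3.58.1 on log2(RPKM + 1) and log2(RPKM + 0.1), the model with the most reads, 12 libraries in one fit, a replicate block, and each library left out.

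Named with values were collagen genes at 5 RPKM or more in a library and others that passed a test, with fold changes for up to 8 per comparison, and from each other list up to 4 genes with the smallest adjusted p. Lox, Adamts2, Ddr2, Mia3, Mmp1a, Mmp8, Postn, Lum, Thbd, Thy1, Acan, Comp, Matn1, Matn3 and collagen genes below 1 RPKM were added after their values were seen. Lists covered folding and modification, processing and crosslinking, degradation and uptake, receptors, basement membrane partners, and markers of fibroblasts, endoderm, ES cells, cartilage, endothelium and cardiac muscle. The members and lists were chosen with earlier results of these data known. Promoter windows, names and neighbours are from RefSeq (GRCm38.p6), whose symbols matched all 43 collagen genes, and exon overlaps from GENCODE M21. Floors cover counting error only.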

Additional observations from a re-analysis of the deposited data

Results flagged for a closer look

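The response to differentiation differed from WT in 6 of 22 collagen genes of KO cells, by the contrast of the edgeR fit. Over all genes 7.24% were lower and 9.07% higher in that contrast. The 6 calls other than those of Col4a1 and Col4a2 were lost without any one WT or KO ES library. On the log2 scale the 6 differences were -2.51 for Col27a1, -4.21 for Col4a1, -3.86 for Col4a2, -4.04 for Col5a1, -5.38 for Col6a1 and -2.41 for Col6a2. In DKO cells the response differed from WT in 13 of the 22 genes, against 20.8% lower and 21.1% higher over all genes. These were -9.60 for Col1a1, -9.51 for Col1a2, -14.53 for Col3a1, -5.76 for Col5a1 and -5.31 for Col5a2 among fibrillar genes, and -3.49 for Col4a1, -4.13 for Col4a2 and -8.73 for Col4a5 in basement membranes. Type VI gave -9.66 for Col6a1, -5.67 for Col6a2 and -6.03 for Col6a3, and Col8a2 and Col14a1 were at -2.91 and -5.67. Between DKO and KO the response differed in Col1a1, by -6.22, and in Col6a2, by -3.26, against 6.97% lower and 7.63% higher over all genes. The limits set by the expression filter, and the lost calls given above, hold for all these counts. These 21 differences involve 14 genes and share libraries, and no group had the 4 samples needed to look for a library far from the others.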

How the results depend on the processing

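Over the called collagen genes, 1888 values were recomputed under single changes: 1694 kept direction and call, 194 kept direction only and 0 reversed. Ranges of counts over single libraries left out come last here, whether or not they moved. Counts of called genes that moved by over 1.5 times under another setting are as follows. Without the filter they were 14 for KO against WT, 16 for DKO against WT and 17 for DKO against KO in ES cells, 29 within WT, 21 for the response of DKO minus WT and 7 for DKO against WT in differentiated cells. With DESeq2 they were 10 for the response of KO minus WT, 7 for DKO minus KO, and in differentiated cells 13 for KO against WT, 15 for DKO against WT, 10 for DKO against KO and 5 for day. With limma on log2(RPKM + 1) they were 8 within KO, 1 for the response of DKO minus KO, and in differentiated cells 2 for KO against WT and 9 for DKO against WT; with log2(RPKM + 0.1) these last 2 were 2 and 11. With 12 libraries in one fit they were 4, 4 and 5 for the ES comparisons in the order above, and 12, 16 and 8 for KO against WT, DKO against WT and DKO against KO in differentiated cells. Leaving out single libraries gave 4 to 7, 5 to 6 and 3 to 8 for the ES comparisons, 9 to 18 over the genotypes, 14 to 20 within WT, 5 to 18 within KO, 2 to 7 within DKO, 2 to 15, 8 to 14 and 0 to 11 for the responses of KO minus WT, DKO minus WT and DKO minus KO, and 0 to 12 and 0 to 4 for DKO against WT and DKO against KO in differentiated cells. The cause was not tested, beyond the larger or smaller number of genes or samples each setting has. Shares of all genes are not given for most of these settings, so the counts show only how the calls depend on the setting.

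With the replicate number as a replicate block, the ES counts were 7, 7 and 8, as without it. Deviations of same-numbered ES libraries correlated at -0.03 to -0.055, so no shared deviation by replicate number was seen. This cannot show whether same-numbered libraries were handled together. Differentiated groups had 1 library each and no pairing. Depth limits the low members: Col3a1 in DKO rests on 5 and 20 reads and Col4a6 on 1 and 11.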

Other observations

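Endothelial and cardiac markers were present in the same cultures as the collagen genes. Of 4 endothelial markers 2 rose in WT, 2 in KO and 0 in DKO, where 31.2%, 15.8% and 10.4% of all genes rose. In DKO 1 had an unadjusted p under 0.05, against 36.0% of all genes. Cdh5, the endothelial cadherin, was at 42.8 and 5.92 RPKM in WT at days 8 and 12, 3.32 and 12.0 RPKM in KO and 0.0443 and 0.456 RPKM in DKO. It rose in WT (log2 fold change 8.45, SE 1.42, edgeR adjusted p = 0.0012) and KO (7.12, SE 1.40, adjusted p = 0.0085), and its response was smaller in DKO than in WT by 6.51 (SE 2.17, adjusted p = 0.041). Kdr, a receptor of endothelial precursors, was at 30.4 and 4.30 RPKM in WT, 5.67 and 15.4 RPKM in KO and 0.142 and 2.73 RPKM in DKO. Pecam1 and Tek had another order at day 12, when Pecam1 was at 4.86 RPKM in WT, 22.5 RPKM in KO and 7.03 RPKM in DKO, and Tek at 0.440, 2.16 and 0.461 RPKM. Both were already present in ES cells, Pecam1 at 13.4 and 13.0 RPKM in WT, 32.2 and 28.4 RPKM in KO and 16.3 and 15.2 RPKM in DKO. Pecam1 at day 12 was thus below the ES libraries of its genotype in each case. Tek was at 0.691 and 0.821 RPKM in WT ES cells, 1.595 and 1.293 RPKM in KO and 0.1655 and 0.186 RPKM in DKO.

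Of 4 cardiac markers 1 rose in WT, 1 in KO and 0 in DKO, near the shares of all genes, and in DKO 0 had an unadjusted p under 0.05. Actc1, cardiac actin, was at 8.90 and 2.31 RPKM in WT, 0.552 and 16.9 RPKM in KO and 0 and 0.201 RPKM in DKO. Myl7, an atrial myosin light chain, was at 1.40 and 0.381 RPKM in WT, 0.710 and 2.98 RPKM in KO and 1.08 and 0.277 RPKM in DKO, all within or near its ES range of 0.210 to 2.87 RPKM. Tnnt2 and Myh6 were below 2.5 RPKM in all libraries.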
